A study of Mus musculus with 8 samples.

Results

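The 6 genes that mark layer 6b and the subplate of the mouse cortex, Ctgf, Cplx3, Nxph4, Nr4a2, Tmem163 and Moxd1, were followed across 8 single-cell libraries. The members were the rows of these 6 symbols. All 6 were present in both deposited tables of unique molecular identifier (UMI) counts, which hold 17836 genes in 11494 cells and 15769 genes in 11382 cells. Cells came from frontal isocortex of mice at postnatal day 7 and were sorted by flow cytometry for either of 2 reporter transgenes, either Drd1a-tdTomato (called D1Tom) or golli-τ-eGFP (called GTE). Control libraries carried the reporter with Foxp2 flox/flox and no Cre. Conditional knockout (cKO) libraries carried the reporter with Emx1-Cre and Foxp2 flox/flox, and the GTE label lists Foxp2 flox/flox before and after Emx1-Cre. Controls and cKO mice were littermates, so all 4 groups shared the floxed alleles, and each group had 2 libraries. Emx1-Cre acts in the progenitors of cortical excitatory neurons and of cortical glia, so the deletion was not limited to deep layers. All D1Tom libraries were from female mice except cKO 2, and all GTE libraries were from male mice except cKO 2. D1Tom replicates 1 and 2 were prepared in 2 batches that each held 1 control and 1 cKO library. For GTE, the deposited cell annotation gives a batch number to cKO 1 alone, so batch and genotype cannot be told apart there. The number of mice behind a library is not given in the sources used here, and p-values measure the spread between these libraries.

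Layer 6b is the thin, deepest layer of the cortex, next to the white matter. It is held to contain cells that persist from the subplate, the early-born zone in which thalamic axons wait before they enter the cortical plate. The genes below are used as its markers in rodents, although none of them is restricted to it throughout the brain.

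Of the secreted members, Ctgf encodes connective tissue growth factor, a matrix-associated protein of the CCN family and a target of YAP and TEAD signalling. Nxph4 encodes a neurexophilin, a member of a family of secreted glycoproteins that bind α-neurexins. At the vesicle, Cplx3 encodes a complexin, which binds the assembled SNARE complex and regulates neurotransmitter release. Tmem163 encodes a zinc-transporting membrane protein of vesicles. Nr4a2 (Nurr1) encodes an orphan nuclear receptor that is also induced as an early response gene, and Moxd1 encodes a monooxygenase related to dopamine β-hydroxylase.

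In GRCm38, Ctgf (listed as Ccn2 in the annotation) lies at chr10:24595442-24598683 on the plus strand, and an antisense transcript overlaps it. Moxd1 lies on the same strand at chr10:24223517-24302790, 293 kb away, with 0 protein-coding genes between them. Nxph4 lies at chr10:127525473-127534559, Cplx3 at chr9:57599992-57606281 and Nr4a2 at chr2:57106830-57124003, all on the minus strand. Tmem163 lies at chr1:127486546-127679548 on the minus strand and overlaps Mgat5 on the other strand. Whether the authors' counting separated strands is not given in the sources used here.

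The sequence just upstream of Cplx3 is shown because Cplx3 was the member whose level differed most between genotypes in the cells described below. It covers the 250 bases before the gene's start, chr9:57606282-57606531 on the minus strand, from RefSeq on GRCm38.p6, with matches to the E-box hexamers CAGCTG and CACGTG in capitals.
Cplx3: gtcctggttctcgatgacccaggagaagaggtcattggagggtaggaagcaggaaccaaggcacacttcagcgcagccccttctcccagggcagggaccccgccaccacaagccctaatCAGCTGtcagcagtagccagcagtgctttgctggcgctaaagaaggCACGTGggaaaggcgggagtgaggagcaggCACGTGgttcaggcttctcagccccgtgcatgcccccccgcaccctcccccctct
CAGCTG began 131 bases and CACGTG began 85 and 55 bases before the start. Both hexamers read the same on either strand. Of 27025 promoter windows of this length, 12.8% held CAGCTG and 6.05% held CACGTG. Promoter entries were matched for 4 of the 6 members, and Nr4a2, Tmem163 and Moxd1 held neither hexamer. None of the 4 held the forkhead heptamer TGTTTAC (3.09% of windows), the TEAD hexamer CATTCC (12.6%) or the CRE octamer TGACGTCA (1.62%), searched on both strands. A match describes letters in this window and is not a binding site.

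The D1Tom libraries held 2395 to 3206 cells and 27323298 to 36379194 counts, with medians of 7198 to 12815 counts a cell. The GTE libraries held 1440 to 3948 cells and 4878370 to 6092396 counts, with medians of 1085.5 to 2982, the highest in cKO 1. Pairs of libraries shared 1 to 27 cell barcodes. Values of 2 were 0.307 to 1.69 times as frequent as values of 1 in the D1Tom libraries, so no counting interval was put on a level, and exact binomial intervals on shares of cells cover counting error only. Foxp2, the targeted gene, averaged 37.7 CPM in D1Tom control and 22.97 in cKO libraries, all controls above all cKO. CPM is the count of a gene scaled to 1000000 counts per library or group of cells, and sets of 4 values below are in the order control 1, control 2, cKO 1, cKO 2. Counts from the 3′ end can lie outside the deleted part, so Foxp2 counts check the labels only in part. In GTE the libraries had 9.52, 46.9, 25.4 and 7.43 CPM of Foxp2 and the genotypes overlapped, with cKO 1 above control 1, so GTE control and cKO below mean the libraries labelled so.

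Over all D1Tom cells, Cplx3 and Nxph4 were lower in both cKO libraries than in both controls, and the other 4 members overlapped between genotypes. The control libraries had 9.68 and 9.31 CPM of Cplx3, and the cKO libraries 3.36 and 5.67. The means were 9.495 ± 0.256 CPM (SD, n = 2) against 4.52 ± 1.64. The difference held within each preparation batch, at −1.53 on the log2 scale in batch 1 and −0.72 in batch 2. In batch 2 the control and cKO libraries also differed in sex, so for every member genotype and sex cannot be told apart there. For Nxph4 the controls gave 6.05 and 4.14 CPM against 3.12 and 3.18 in cKO, a gap that was wider in batch 1 (−0.95 log2) than in batch 2 (−0.38). Over all 14508 genes tested, 13.7% were lower in both cKO libraries and 9.7% were higher, and against that background 2 of 6 is not a result about the members as a group.

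**Figure D1:**
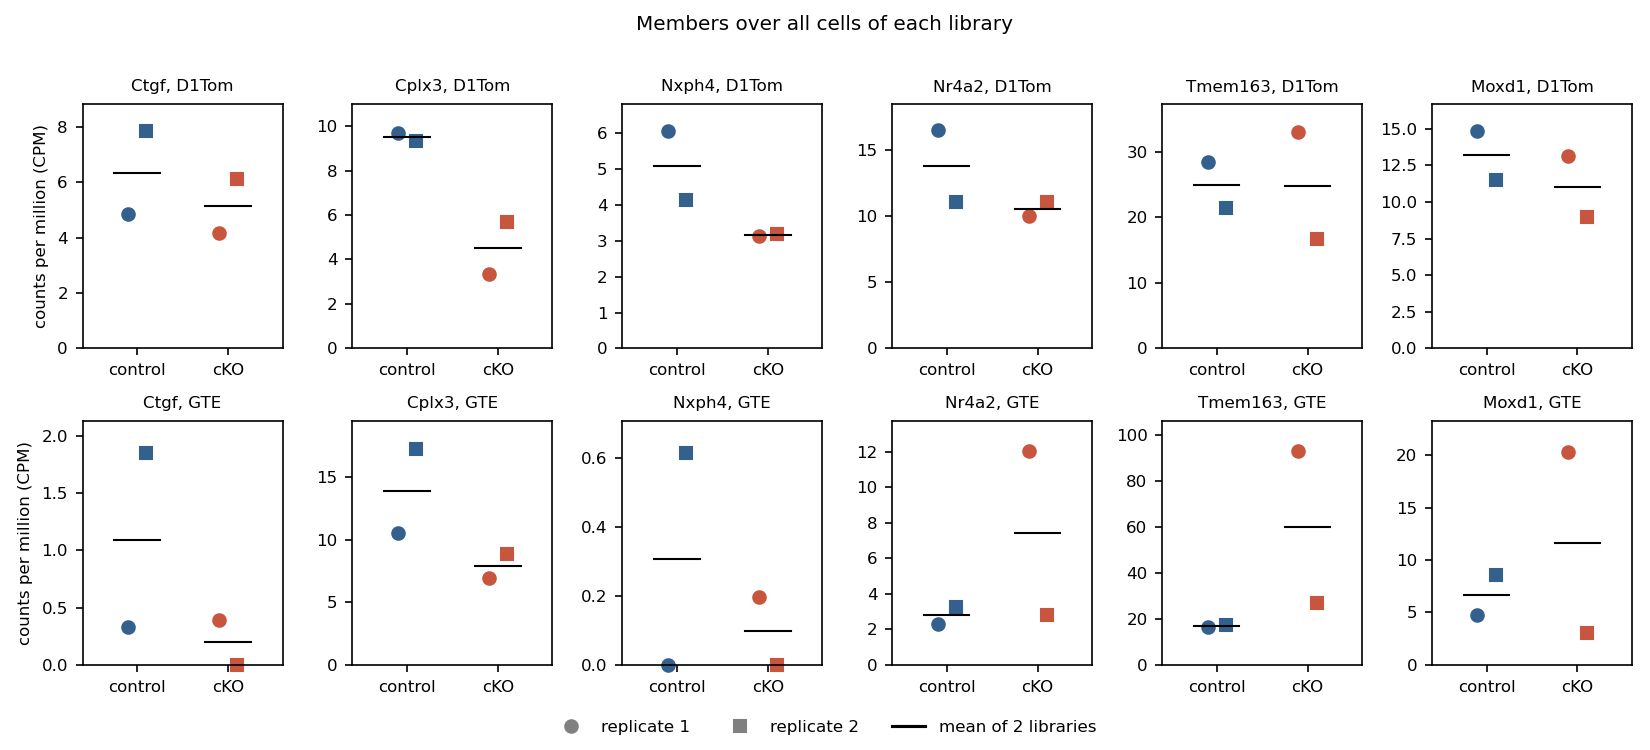
Level of each member over all cells of each library, in CPM on a linear axis from 0, with D1Tom above and GTE below. Circles are replicate 1, squares replicate 2 and bars the mean of 2 libraries; Cplx3 was lower in both cKO libraries in both sorts, and Tmem163 stood at 92.9 CPM in GTE cKO 1.

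The remaining D1Tom levels varied between libraries of the same genotype, and the genotypes overlapped. Ctgf measured 4.84, 7.84, 4.17 and 6.11 CPM, so the replicate 2 library was higher in either genotype. Nr4a2 measured 16.4, 11.01, 10.0 and 11.02 CPM, with control 1 alone standing higher. Tmem163 went the other way from Ctgf, at 28.4 and 33.1 CPM in control 1 and cKO 1 against 21.3 and 16.6 in control 2 and cKO 2. Moxd1 was also higher in batch 1, at 14.9 and 13.1 CPM in control 1 and cKO 1 against 11.5 and 8.97 in control 2 and cKO 2. The order of the batches therefore differed between members. Within each batch, Ctgf and Moxd1 were lower in cKO. The log2 differences in batches 1 and 2 were −0.21 and −0.36 for Ctgf and −0.18 and −0.36 for Moxd1. Nr4a2 and Tmem163 were not lower in cKO in both batches.

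None of the 6 members passed edgeR's quasi-likelihood test with Benjamini-Hochberg adjustment in D1Tom, where 0% of 14508 genes did. At an unadjusted p under 0.05 there were 320 genes by edgeR, and DESeq2 called 20 after adjustment, none of them a member. Cplx3 had the largest estimate, −0.98 on the log2 scale (SE 0.35, edgeR adjusted p = 0.998). Nxph4 was at −0.62 (SE 0.30), Nr4a2 at −0.30 (SE 0.24), Ctgf at −0.23 (SE 0.40), Moxd1 at −0.20 (SE 0.21) and Tmem163 at 0.04 (SE 0.28). The median of the 6 was −0.27, against −0.01 over all genes. In simulated tables of the same depth, edgeR recovered 98 of 100 genes changed by 4-fold and 33 of 100 changed by 2-fold. These tables assumed the same spread between libraries for every gene and changed well-counted genes only. A change of the size estimated for Cplx3 was therefore often missed in those tables. The assumed spread was not estimated from these libraries, so the simulation does not give how often such a change would be called here.

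The 11494 D1Tom cells were grouped into 27 clusters with the members left out of both clustering and naming, and the members did not share one cluster. Cluster 12, named layer 6 corticothalamic-like from its markers, was the only cluster with 5 members at 20 CPM or more, and its members had the best mean rank over clusters, 3.83 against 7.83 for the next. It also met the layer 6b or subplate list, with 7 of 10 markers at 2-fold or more and a median fold of 3.19. The corticothalamic list had 9 of 10 and a median fold of 6.24, which decided the name. By summed level, cluster 19, Cajal-Retzius-like, came first because of Tmem163. Cajal-Retzius cells are the early-born, Reln-expressing neurons of layer 1, at the opposite surface of the cortex.

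**Figure D2:**
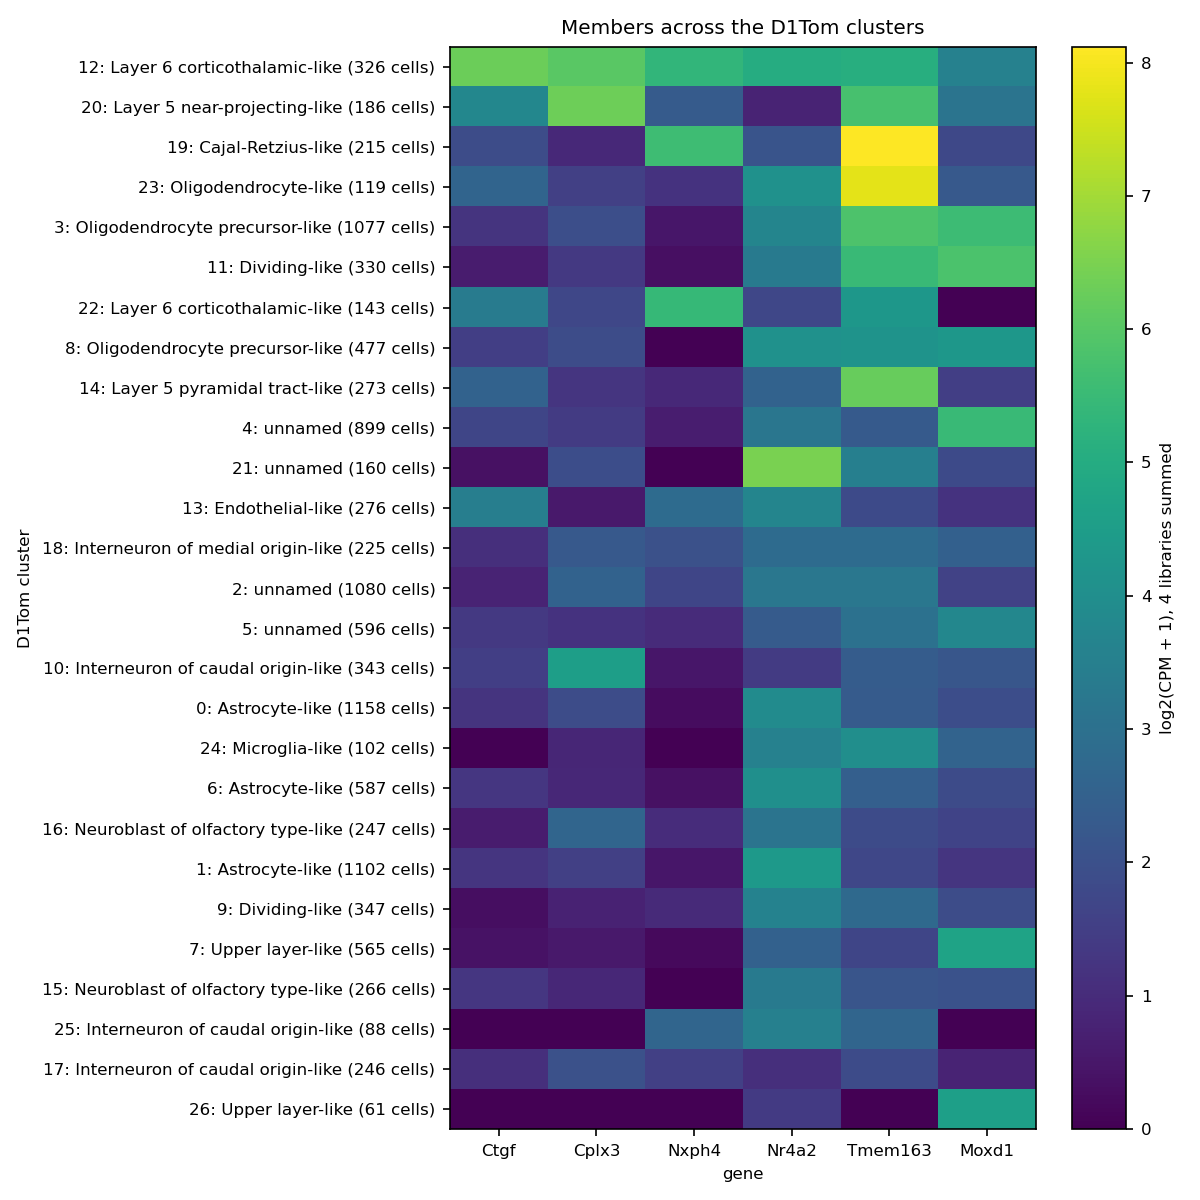
Level of each member in each of the 27 D1Tom clusters, as log2(CPM + 1) of the counts summed over 4 libraries, with clusters ordered from top to bottom by the sum of the 6 values. Ctgf is bright in cluster 12 alone, while Tmem163 and Moxd1 are bright in glial and dividing-like clusters too.

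Ctgf was the most restricted member. In cluster 12 it stood at 76.9 CPM, ranging from 51.9 to 101.9 over the 4 libraries. The next cluster, 20 (layer 5 near-projecting-like), was at 12.5 CPM with a highest library of 24.5, so the ranges of these clusters did not overlap. Endothelial-like cluster 13 followed at 10.1 CPM, which overlapped cluster 20, and the median over clusters was 1.37. Layer 6 corticothalamic-like cluster 22 was at 9.35 CPM. Its control 2 library reached 85.8, within the range of cluster 12, from 4 counts in 1 of 7 cells.

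Cplx3 had its highest level in cluster 20, at 79.1 CPM, with 96.4, 53.9, 77.0 and 81.1 by library. Cluster 12 was next at 64.1 CPM, and its library range of 0 to 104.1 overlapped that of cluster 20. A cluster of interneurons of caudal origin-like cells (10) followed at 22.4 CPM, and no later cluster passed 5.20. Nxph4 was highest in clusters 19 (47.0 CPM), 22 (42.1 CPM, also layer 6 corticothalamic-like) and 12 (39.8 CPM), which overlapped one another. The next cluster was at 6.16 CPM and lay below all 3. Cluster 25, at 5.27 CPM, reached 55.8 in cKO 2 from 1 count in 5 cells.

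Nr4a2 was highest in cluster 21, which met no marker list and was left unnamed, and whose leading genes were Oprk1, Figf and Osr1. There the 4 libraries gave 52.3, 194, 91.2 and 91.0 CPM, above every library of the next cluster. Cluster 12 came next at 31.3 CPM, and astrocyte-like cluster 1 at 19.6 overlapped it. Tmem163 was highest in Cajal-Retzius-like cluster 19 (276.5 CPM) and oligodendrocyte-like cluster 23 (220.9 CPM), ahead of layer 5 pyramidal tract-like cluster 14 (73.8 CPM). Moxd1 was at 54.9 CPM in dividing-like cluster 11, 46.3 in oligodendrocyte precursor-like cluster 3 and 44.4 in unnamed cluster 4, with overlapping ranges. Ctgf, Cplx3 and Nxph4 were thus concentrated in a few neuronal clusters, whereas the other 3 also had high levels in glial, dividing or unnamed clusters.

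Within cluster 12, a second round of clustering without the members gave 8 sub-clusters. The rule that picks sub-clusters was set after the data had been seen. Sub-clusters 2 and 4, with 52 and 38 cells, had at least 3 of 10 layer 6b or subplate markers at 2-fold or more over the rest of the cluster, 6 and 3 of them, and the other 6 sub-clusters had 0. Leading among these markers were Lpar1, Kcnab1 and Htr1d. Over both sub-clusters together, Inpp4b, Svil, Pls3 and Gabra5 were also higher than in the rest of cluster 12 in 4 of 4 libraries. Hs3st4 and Zfpm2 went the other way in 4 of 4, and Trh was higher in 2 of 4. The median marker fold was 2.16 in sub-cluster 2 and 1.3 in sub-cluster 4. The 90 cells are called layer 6b-like here, and they made up 0.783% of D1Tom cells. The markers chose these cells, so their own levels are no finding. The 6 members were used in neither the second clustering nor the choice of sub-clusters. The members' mean rank had, however, picked cluster 12 for this split.

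All 6 members were higher in the layer 6b-like cells than in the other 236 cells of cluster 12, in 4 of 4 libraries for 5 members and in 3 of 4 for Cplx3. Ctgf stood at 184, 222, 252 and 228 CPM, against 0 to 14.6 in the rest of the cluster. No library of the rest came near them, and the pooled levels differed 52.1-fold. Tmem163 was at 64.0, 61.6, 140.1 and 88.8 CPM against 4.37 to 16.2, a 9.04-fold difference. Nr4a2 was at 102, 38.9, 68.5 and 58.3 CPM against 8.74 to 14.6, a 5.45-fold difference. The ranges of the 2 sets of cells did not overlap for any of these 3 genes. Moxd1 was at 31.3, 16.1, 21.8 and 22.8 CPM against 0 to 8.73, and Nxph4 at 112, 59.0, 59.2 and 96.4 against 8.09 to 20.4, about 5-fold each at 5.01 and 4.89. The sums come from the same 4 libraries and the split was chosen with the data known, so these differences are given without a test.

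The layer 6b-like cells differed from the rest of cluster 12 in genes that were looked at after the members. Foxp2 was lower there in 4 of 4 libraries, with 68.3 and 87.1 CPM for the controls against 332 and 318 in the other cells of the cluster, and 9.34 and 12.7 CPM for cKO against 77.2 and 80.9. The cKO levels in layer 6b-like cells rest on only 3 counts in 2 of 8 cells of cKO 1 and 5 counts in 4 of 23 cells of cKO 2. The corticothalamic genes Syt6 and Rprm were 6.97-fold and 6.64-fold lower, and the vesicular glutamate transporter Slc17a7 was 3.51-fold higher. Foxp2, Syt6 and Rprm are among the markers that named cluster 12. Tbr1, a transcription factor of deep-layer neurons, was at similar levels, 331 CPM against 361.

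**Figure D3:**
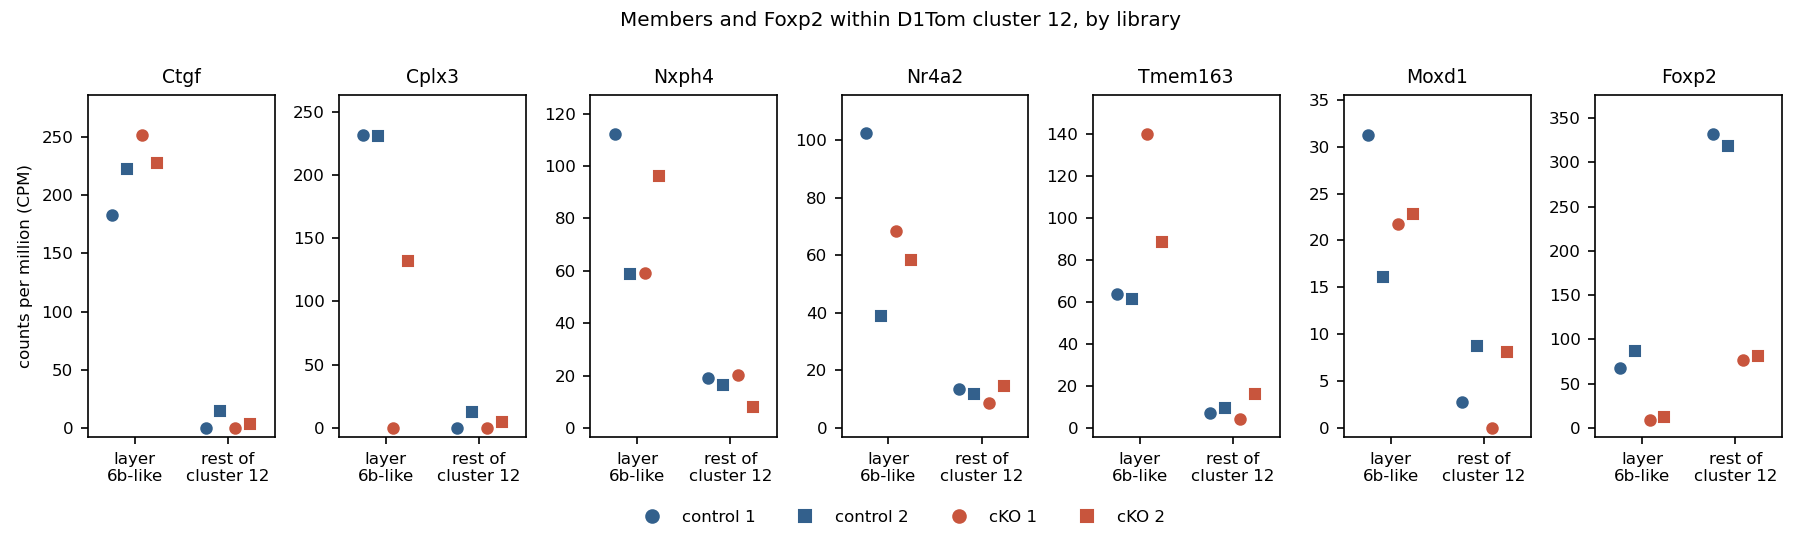
Level of each member and of Foxp2, in CPM on linear axes that differ between panels, in the 90 layer 6b-like cells and the other 236 cells of D1Tom cluster 12, with 1 point a library (blue control, red cKO; circle replicate 1, square replicate 2). The members sit high in the layer 6b-like cells except for Cplx3 in cKO 1, which is at 0, while Foxp2 sits lower there.

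The 90 cells held most of the Ctgf counts of the whole sort and few of those of Tmem163 and Moxd1. They carried 62.3% of the D1Tom counts of Ctgf, 41.1% of Cplx3 and 32.9% of Nxph4, against 9.18% of Nr4a2, 5.29% of Tmem163 and 3.15% of Moxd1. Cajal-Retzius-like cells carried 28.7% of Nxph4 and 28.6% of Tmem163. Clusters named precursor-like or oligodendrocyte-like, of the oligodendrocyte lineage, together carried 26.9% of Tmem163, 29.0% of Moxd1 and 12.8% of Nr4a2. Dividing-like cluster 11 is not in that group, although 10 of 10 oligodendrocyte precursor markers were at 2-fold or more there. It carried a further 5.23% of Tmem163, 13.3% of Moxd1 and 2.20% of Nr4a2. Astrocyte-like cells carried 24.5% of Nr4a2, cluster 20 carried 22.9% of Cplx3, and upper layer-like cells carried 21.1% of Moxd1. Over the 4 libraries together, most counts of 5 of the 6 genes thus lay outside layer 6b-like cells, although in control 2 these cells held 51.3% of the Cplx3 counts.

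**Figure D4:**
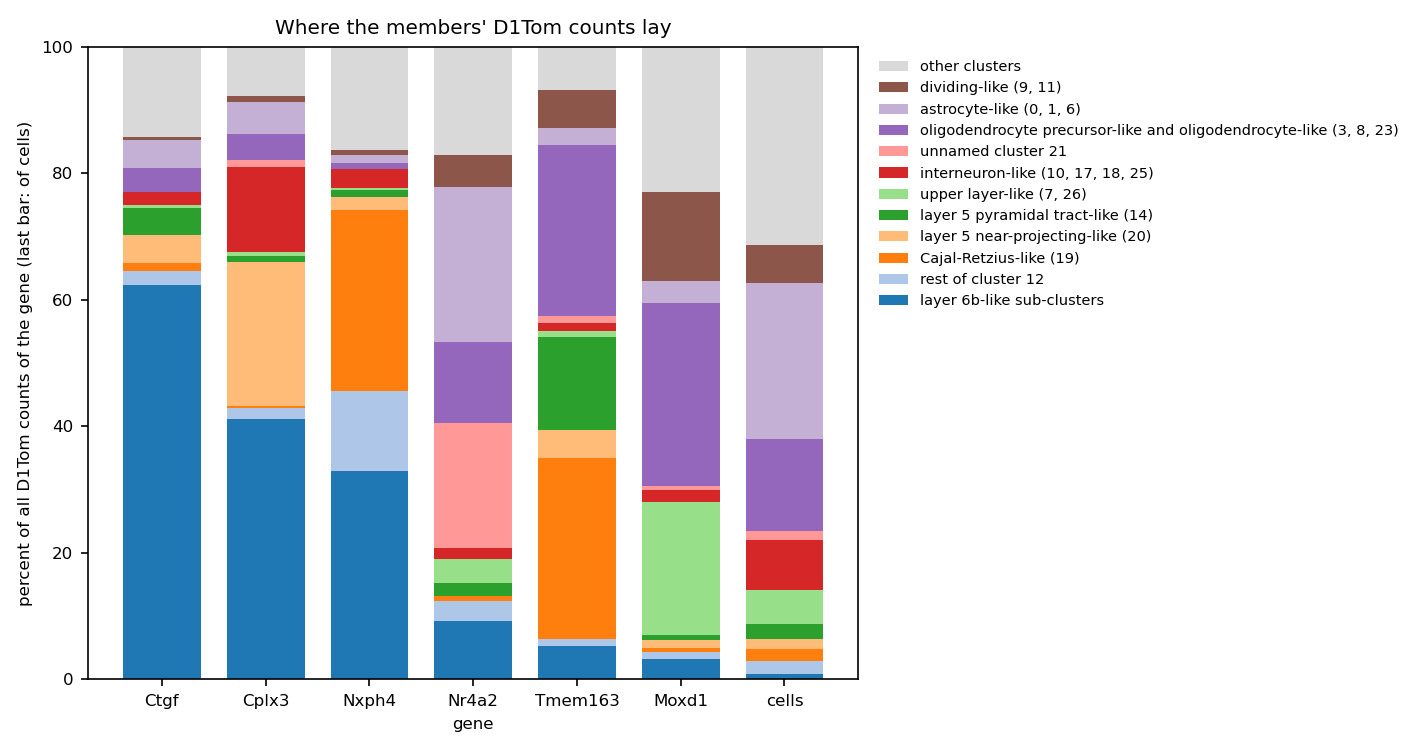
Share of each member's D1Tom counts that lay in each group of clusters, in percent, with the share of cells as the last bar. The layer 6b-like cells are 0.783% of cells and hold 62.3% of Ctgf counts.

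Cplx3 was the member whose level in layer 6b-like cells differed most between genotypes. The controls had 232 and 230.4 CPM of it, cKO 1 had 0 and cKO 2 had 132, so both cKO libraries lay below both controls. Cells with a Cplx3 count numbered 8 of 23 and 19 of 36 in the controls, 0 of 8 in cKO 1 and 11 of 23 in cKO 2. The exact Clopper-Pearson interval for 0 of 8 cells reaches 36.9%. That is above the 34.8% of control 1 and below the 52.8% of control 2, whose own interval starts at 35.5%. At this number of cells an absence in cKO 1 was therefore not detectable as a difference in share from control 1. The intervals of cKO 1 and control 2 also overlapped. A floor of 3 counts in that library is 9.34 CPM, which lies 24.7-fold below control 2. In control 1 the cells with Cplx3 held a median of 17.5 counts. A single such cell would exceed the floor, so this fold is no lower bound on the difference in level. Few cells carried the counts, and the highest single cell held 46 of 163 in control 1, 39 of 172 in control 2 and 13 of 52 in cKO 2. Without that cell the levels were 179.7 CPM in control 1, 188 in control 2 and 105 in cKO 2, so cKO 2 still lay below both controls.

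In the whole of cluster 12, Cplx3 was found in 8 of 122 and 25 of 97 control cells, in 0 of 38 cells of cKO 1 (upper limit 9.25%) and in 13 of 69 of cKO 2. Control 1 had a share of 6.56% and control 2 one of 25.8%, so the controls differed from each other more than control 1 differed from cKO 1. In CPM the cluster stood at 65.5, 104.1, 0 and 54.3. In the other clusters with high Cplx3, the genotypes overlapped. Cluster 20, with 27 cells in cKO 2, fell short of the 30 cells a library asked for elsewhere, and in a fit that asked for 10 its log2 estimate was 0.07 (SE 0.34). In cluster 10, where Cplx3 measured 26.5, 14.1, 23.4 and 22.4 CPM, the estimate was 0.15 (SE 0.41). Foxp2 in cluster 20 was estimated at −2.21 (SE 0.43) in the fit with 10 cells.

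In cluster 12, edgeR called 0 members and 1 of 10068 genes (0.00993%), which was Foxp2 at −2.14 (SE 0.22, adjusted p = 0.033). Cplx3 was at −1.62 (SE 0.84, adjusted p = 0.999). With the preparation batch as a replicate block it was at −1.84 (SE 0.25, edgeR adjusted p = 1.3e-10), and with no filter on low counts it was at −1.64 (adjusted p = 6.0e-05). Without cKO 2, which leaves cKO 1 at 0 counts as the only cKO library, it was called with an estimate that depends on the prior count. In the layer 6b-like cells alone, edgeR called 0 members and 2 of 7749 genes (0.0258%), with Cplx3 at −1.74 (SE 0.63, adjusted p = 1.00). The call for Cplx3 in these cells therefore rested on the choice of fit and on cKO 1, which supplied 8 of the 90 cells.

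No other member was lower in both cKO libraries in the layer 6b-like cells. Moxd1 was estimated at −0.10 (SE 0.59), Nxph4 at −0.14 (SE 0.39) and Nr4a2 at −0.18 (SE 0.43), all with overlapping libraries. Ctgf and Tmem163 were higher in both cKO libraries than in both controls, with estimates of 0.22 (SE 0.27) and 0.83 (SE 0.34, edgeR adjusted p = 1.00). Of the 7749 genes tested in these cells, 17.1% were higher and 16.1% lower in both cKO libraries, so such a separation was common. The other complexins were abundant in the same cells, with Cplx1 at 188 to 336 CPM and Cplx2 at 162 to 326 over the 4 libraries. Neither Cplx1 nor Cplx2 separated the genotypes.

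**Figure D5:**
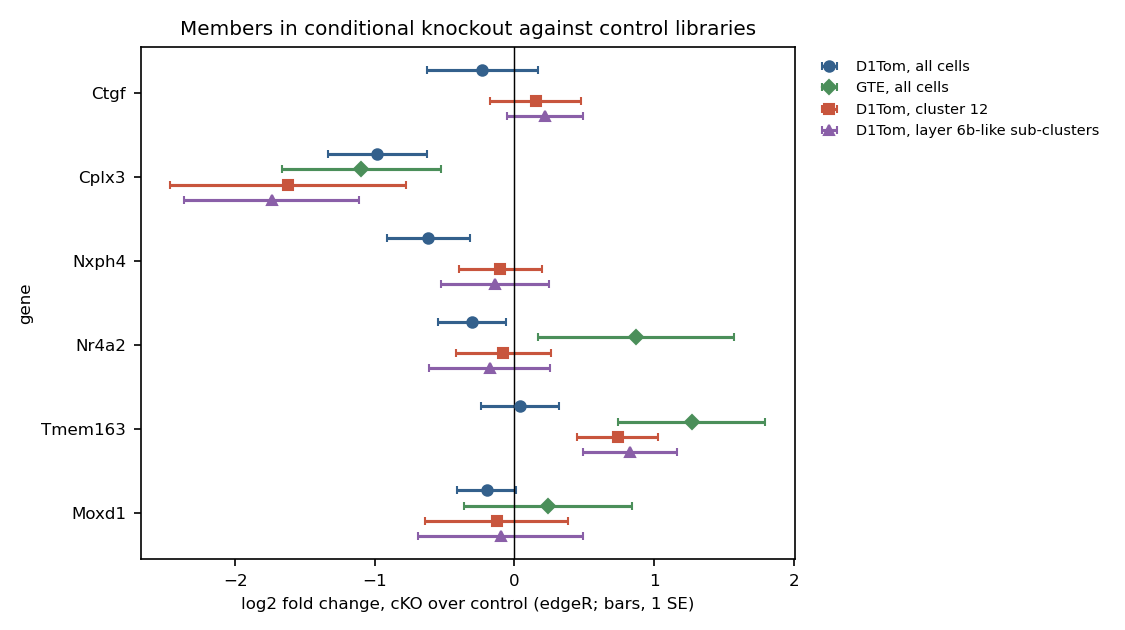
Log2 fold change of cKO over control libraries from edgeR for each member tested, with bars of 1 SE, in all D1Tom cells, all GTE cells, D1Tom cluster 12 and the layer 6b-like cells. Cplx3 lies left of 0 in all 4 fits, and in none of them did a member pass the adjusted threshold.

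The number of layer 6b-like cells itself was small and uneven. The 4 libraries held 23, 36, 8 and 23 of them, or 0.717%, 1.503%, 0.285% and 0.747% of cells. The cKO libraries thus overlapped the controls. An exact two-sided permutation test of the 4 shares gave p = 0.667 with a difference of −0.595 percentage points, in a design of n = 2 against 2 that cannot go below 0.33. Cluster 12 as a whole made up 3.81% and 4.05% of control cells and 1.35% and 2.24% of cKO cells. For cluster 19, which has the highest summed level, the shares were 1.56%, 2.88%, 1.39% and 1.85%, a difference of −0.60 points with the same exact permutation p. In a level over all cells of a library, fewer cells of a type and less RNA per cell cannot be told apart, and the contribution of a cell type to that level mixes both too. For Cplx3, layer 6b-like cells contributed 4.48 and 4.78 of the CPM of the control libraries, and 0 and 1.90 in cKO, while all other cells contributed 5.20 and 4.53 in controls and 3.36 and 3.77 in cKO.

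The members were found together in single cells. At least 3 of the 6 were counted in 117 D1Tom cells (1.02%), of which 58 were among the 90 layer 6b-like cells (64.4%), 6 among the other 236 cells of cluster 12 (2.54%) and 53 among the other 11168 cells (0.475%). Layer 6b-like cells were also deeper, with a median of 22625.5 counts against 17030.5 in the rest of cluster 12 and 8317 elsewhere. With every cell thinned to 5000 counts, 26 of 89 layer 6b-like cells (29.2%), 0 of 235 in the rest of the cluster and 6 of 8888 elsewhere held at least 3 members. In cluster 12, 35 of 46 cells with Cplx3 also had Ctgf (76.1%), against 37 of 280 cells without Cplx3 (13.2%). The 2 sets had median depths of 20088 and 17836 counts.

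Shares of all D1Tom cells with a member depended on depth. Cplx3 was counted in 1.93% and 4.47% of control cells and in 1.21% and 2.69% of cKO cells, and with cells thinned to 2000 counts in 0.687%, 1.21%, 0.415% and 0.634%. Ctgf went from 1.56%, 4.01%, 1.21% and 2.499% to 0.491%, 0.877%, 0.226% and 0.467%. Thinning left out 148, 1, 161 and 86 cells with fewer counts. In both forms control 2, the deepest library, had the highest share of both genes and cKO 1 the lowest. As a background, Cplx3 was counted in 1.81% of astrocyte-like cells of cluster 0 and Ctgf in 0.95%, at a median of 8094 counts.

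Across the D1Tom clusters with enough cells, 28 pairs of member and cluster could be tested in 13 clusters, and none passed, where 0.00877% of all 148311 gene and cluster pairs did. Of the 28 estimates, 20 were below 0 and 1 had an unadjusted p under 0.05, which was Tmem163 in cluster 12 at 0.74 (SE 0.29, edgeR adjusted p = 0.999). Tmem163 in cluster 19 stood at 417, 197, 397 and 119.8 CPM, so the batch 1 libraries were the higher ones in both genotypes. In cluster 3 it was at 84.1, 29.3, 74.7 and 31.2 CPM, with the batches again apart and the genotypes not. The same order was seen over all cells, and whether preparation set it was not tested.

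Nr4a2 in astrocyte-like cells followed control 1. In cluster 1 that library had 30.7 CPM against 7.25, 5.26 and 4.81 in the other 3, and in cluster 6 28.7 against 8.70, 11.5 and 9.74. Cluster 0 showed the same order, at 36.9 against 12.0, 11.2 and 9.74. Early response genes were also high in control 1 over all cells, with Fosb at 71.0 CPM against 2.51 to 2.64, Ier2 at 117 against 19.1 to 32.1 and Junb at 92.5 against 14.5 to 25.6. Of the 15 genes of the early response and dissociation list, all tested, 12 were below 0 in cKO and 0 passed, with a median of −1.03. Without control 2, which leaves control 1 as the only control, edgeR called Nr4a2 in cluster 0 (−1.74, adjusted p = 0.0023), cluster 1 (−2.59, adjusted p = 0.00019) and cluster 6 (−1.46, adjusted p = 0.024). It was called in none of them with all 4 libraries, and the part of the early response genes in this was not tested.

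In the GTE sort the secreted members were nearly uncounted. Ctgf had 2, 9, 2 and 0 counts by library, and Nxph4 had 0, 3, 1 and 0. At 0 of 2923 cells in cKO 2, the exact interval for either gene reaches 0.126%. The golli element is known to drive its reporter in subplate and layer 6 neurons. Over all cells labelled golli-τ-eGFP+, these 2 markers of the population were at or near 0. Unnamed cluster 11 (94 cells) held 4 of the Ctgf counts and 1 of the Nxph4 counts, and unnamed cluster 13 (35 cells) held 5 and 2. Cluster 13, with 27 cells from control 2, had 10 of 10 layer 6 corticothalamic and 6 of 10 layer 6b markers at 2-fold or more. Cplx3 was at 10.5, 17.2, 6.90 and 8.84 CPM, lower in both cKO libraries, where 6.67% of 12042 genes were lower in both and 19.6% higher. It was highest in cluster 13 at 58.7 CPM, from 21 counts in 2 cells, all in control 2. Cluster 11 followed at 55.8 CPM, from 8 counts in 2 cells, all in cKO 1. The next cluster was at 18.7 CPM. Cplx3 was also counted at lower levels across other clusters, with a median over 16 clusters of 9.18 CPM and 1.35% of cells in the largest, cluster 0. Tmem163, the only member higher in both cKO libraries, was at 16.6, 17.2, 92.9 and 27.1 CPM.

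GTE cKO 1 stood apart for Tmem163, Nr4a2 and Moxd1. Nr4a2 was at 2.30, 3.28, 12.0 and 2.83 CPM and Moxd1 at 4.76, 8.61, 20.3 and 3.01, with cKO 1 above the other 3 libraries in each case. Oligodendrocyte precursor-like and oligodendrocyte-like cells made up 29.0% of cKO 1 and 3.44%, 6.45% and 4.96% of the other libraries. They contributed 73.2 CPM of Tmem163 in cKO 1, or 78.8% of its counts there, against 8.70, 8.61 and 10.1 CPM in the others. Within oligodendrocyte-like cells alone Tmem163 was also higher in cKO 1, at 504 CPM against 108, 198 and 176. By edgeR, 0 of the 4 members tested passed in GTE, where 0.0332% of 12042 genes did (0.0083% higher and 0.0249% lower in cKO). Tmem163 was at 1.27 (SE 0.53, adjusted p = 0.885), Cplx3 at −1.10 (SE 0.57), Nr4a2 at 0.87 (SE 0.70) and Moxd1 at 0.24 (SE 0.60). In 7 tests of a member within 5 GTE clusters none passed, where 0.00194% of all gene and cluster pairs did.

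Between the sorts, the members split. Of 13765 genes, 20.2% passed between D1Tom and GTE, 11.1% higher and 9.13% lower in D1Tom, and 3 of 6 members did. Nxph4 was higher in D1Tom by 3.98 on the log2 scale (SE 0.68, edgeR adjusted p = 0.0036) and Ctgf by 2.88 (SE 0.64, adjusted p = 0.011), in 4 of 4 libraries each. Cplx3 was lower in D1Tom, at −1.15 (SE 0.30, adjusted p = 0.022), but its libraries overlapped, with 9.68 CPM in D1Tom control 1 above the 2 GTE cKO libraries. That call was lost in 5 of the 8 fits that left out 1 library, those without D1Tom control 1, control 2 or cKO 1 or GTE control 2 or cKO 2, at adjusted p from 0.060 to 0.079. Nr4a2 at 0.97 (adjusted p = 0.080) was called by DESeq2 (adjusted p = 0.044) and without GTE cKO 1 (1.51, edgeR adjusted p = 0.0048). Tmem163 was at −0.79 (SE 0.34) and Moxd1 at 0.09 (SE 0.36). Sort, depth, cell make-up and preparation cannot be told apart in this comparison. Sex went largely with sort too, and was not in the fit. The test of whether the cKO effect differed between sorts passed for 0 of 6 members and 0% of 14026 genes, with Cplx3 at 0.12 (SE 0.62).

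Other layer 6b and subplate genes gave no call either. Of 17 listed, 16 were tested in D1Tom and 13 were below 0, with a median of −0.19 against −0.01 over all genes, and 0 passed. The smallest p belonged to Drd, as the table spells the symbol, which measured 65.5, 64.4, 27.3 and 21.04 CPM (−1.37, SE 0.14, edgeR adjusted p = 0.765). Next were Hs3st4, a heparan sulfate sulfotransferase, at −0.47 (SE 0.19), and Prss12, a secreted neuronal protease, at −0.28 (SE 0.15). Drd in layer 6b-like cells stood at 337, 295, 109 and 137 CPM, and was counted in 75.0% to 100% of cells. In those cells 16.1% of 7749 genes were lower in both cKO libraries. The rest of cluster 12 had 280, 256, 160 and 112 CPM of Drd, and all cells outside the cluster 48.5, 53.6, 23.2 and 17.2. The lower cKO levels were thus not particular to layer 6b-like cells. Of the 10 layer 6 corticothalamic markers 8 were below 0, with a median of −0.41.

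Relatives of the members were also below the threshold. Of the neurexophilins and neurexins, 6 of 6 were tested and 0 passed, 4 below 0; Nrxn3, one of the neurexin receptors, was at 0.47 (SE 0.15, edgeR adjusted p = 0.998) and Nxph3 at −0.43 (SE 0.20). Both complexins tested were below 0, with a median of −0.15. Pam, a copper monooxygenase that amidates peptides, was at −0.45 (SE 0.21). Of the 8 genes of the YAP and TEAD list 7 were tested, 5 were above 0 and 0 passed, with Tead1 at 0.66 (SE 0.27), Yap1 at 0.34 (SE 0.19) and Cyr61, the CCN relative of Ctgf, at −1.19 (SE 0.62). Control 1 had 76.7 CPM of Cyr61 and the other 3 libraries 15.8 to 22.96, the pattern of the early response genes. Of the 2 orphan nuclear receptors and 3 zinc transporters tested, 0 passed.

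In Cajal-Retzius-like cluster 19, which led by summed level, the genes named here were among the highest of their lists. That ranking was made within the cluster, and it does not show that a gene was higher there than in other cells. Nrxn2 was at 327 CPM and Cplx1 at 170, and among the other layer 6b genes Pls3 was at 35.3, Kcnab1 at 30.9 and Rgs17 at 29.7. Tead1 (60.8), Wwtr1 (28.2) and Lats2 (8.39) led the YAP and TEAD list there, and Jund (260), Jun (100.0) and Fos (72.5) the early response list.

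Genes of like pattern were sought by Pearson correlation of log2(CPM + 1) over the 27 D1Tom clusters in the 2 control libraries, among 12985 genes at 10 CPM or more in a cluster. The points share libraries and differ in depth and cell number, so the values are descriptions. Ctgf was most like Zdhhc9 (0.75), Cdh18 (0.74) and Pappa2 (0.72), and Cplx3 most like Hs3st4 (0.78), Col12a1 (0.68) and AC102077.1 (0.68). Nxph4 was most like Hs3st6 (0.82), St3gal5 (0.77) and Plek2 (0.69), each of which was highest in cluster 19. Nr4a2 was most like Ankrd40 (0.78), Msrb2 (0.73) and Dusp14 (0.72). Tmem163 was most like Cabp7 (0.88), Gpr17 (0.76) and Zfp488 (0.74), of which the last 2, genes of the oligodendrocyte lineage, were highest in cluster 23. Moxd1 was most like Nfatc2 (0.79), Galnt3 (0.77) and Slc22a3 (0.74), all highest in oligodendrocyte precursor-like cluster 3. Among the members themselves the highest value was between Ctgf and Nxph4 (0.62), followed by Ctgf and Cplx3 (0.50), and the lowest between Nxph4 and Moxd1 (−0.32).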

How the data were processed

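The authors deposited tables of raw UMI counts per gene and cell, one for each sort, in which every value was a whole number and the column totals equalled the deposited totals in every cell. Libraries were made with a 10x Genomics 3′ kit (version 2), per the labels' protocols. The submitters' processing notes name bcl2fastq 2.17.1.14, Cell Ranger 2.1.1, FastQC 0.11.5, UMI-tools 0.5.4, STAR 2.5.2b, featureCounts, Subread 1.6.2 and SAMtools 1.6, and the builds mm10 and GRCm38.p6. The authors also deposited, per the file headers, the total count, the number of genes and the fraction of counts from mitochondrial genes of each cell. No file gave cell types.

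Counts were summed per library, or per library and cluster, and tested with edgeR 4.0.16 (TMM, filterByExpr, quasi-likelihood test, R 4.3.3) over all genes, with a threshold of 0.05 on Benjamini-Hochberg adjusted p. Clusters needed at least 30 cells a library, with 10 as an alternative, or 5 for the layer 6b-like cells. The tests were checked on simulated data. Cells were clustered with scanpy 1.11.5 (2000 variable genes without the members, Foxp2, Drd, early response genes and sex-linked genes, 30 components, 20 neighbours, Leiden resolution 1.0), and 143 GTE cells under 500 counts were left out. A cluster was named from a list with at least 3 markers at 2-fold or more. That list also needed a median fold of at least 2 and the most markers among the cluster's 10 leading genes. Doublets were kept, and fits without the 267 D1Tom and 285 GTE cells of highest doublet score were an alternative. CPM scales the summed counts to 1000000. Coordinates come from GENCODE M21.

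The members and lists were chosen with earlier results of these data known. The members are always named, with the 3 genes of most similar pattern to each and, of each list, at most the 3 with the smallest p and the 3 with the highest level in the cluster of highest summed member level. A single gene among those is left out and not reported here. D1Tom replicate numbers pair the samples, since the labels give same-numbered libraries a shared batch, and their deviations from the group means correlated at 0.50 over 14508 genes. Alternatives were DESeq2 1.42.0, no filter, the replicate block, other resolutions, fits without each library, and those named as added.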

Additional observations from a re-analysis of the deposited data

How the results depend on the processing

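No member was called in either sort over all cells, or in the interaction, under any alternative run. Over D1Tom clusters, where 0 were called, no filter gave 1 and the replicate block 1, both Cplx3 in cluster 12, and leaving out a library gave 0 to 3. In the layer 6b-like cells, a fit added after seeing the data, no filter gave 1 and leaving out a library 0 to 1, all Cplx3. Between the sorts, leaving out a library gave 2 to 4 members. Estimates near 0 changed sign: Tmem163 over D1Tom cells was −0.001 with the replicate block (−0.40 to 0.37 without a library), Moxd1 over GTE cells −0.047 with it (−1.11 to 0.89), and in cluster 12 without doublets Nxph4 was 0.017 (−0.36 to 0.12) and Moxd1 0.013 (−0.77 to 0.32). Without a library, Ctgf over D1Tom cells ran from −0.66 to 0.22, and in cluster 12 Ctgf from −0.28 to 0.72 and Nr4a2 from −0.38 to 0.34. In layer 6b-like cells Nxph4 ran from −0.60 to 0.38 and Nr4a2 from −0.73 to 0.66. Between sorts Moxd1 ran from −0.15 to 0.65, and in the interaction Cplx3 ran from −0.42 to 0.71, Nxph4 from −4.84 to 5.50 and Moxd1 from −1.12 to 0.94. Cplx3 kept its direction in both sorts, at −1.54 to −0.57 in D1Tom and −1.72 to −0.62 in GTE. Over D1Tom cells 0 genes were called, against 20 by DESeq2, 1 with the block and 0 to 6 without a library. Over GTE cells 4 were called, against 0 by DESeq2, 18 with no filter, 0 with the block, 1 without doublets and 1 to 27 without a library. GTE numbers correlated at −0.35, and an added block with crossed numbers called 24 genes, with Moxd1 at −0.011. Where a sole library of a group remained, it was assumed to vary like the others. The cause of these changes was not tested. Precision is limited by 2 libraries a group, by 8 layer 6b-like cells in cKO 1 and by GTE depth, at which Ctgf and Nxph4 were too low to be tested alone.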
